A study of Ovis aries with 23 samples.

Results

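MTNR1A (ENSOARG00000008287), the gene of melatonin receptor 1A, and PDE10A (ENSOARG00000004847), the gene of a cyclic nucleotide phosphodiesterase, are 2 of the 25197 genes counted in the pars tuberalis (PT) of sheep moved from short to long days. They were chosen by name, because the study lists MTNR1A among the genes that differ from short photoperiods (SPs) after 7 days of long photoperiods (LPs) and PDE10A among those that differ after 28 days, and because levels of both differ between odd- and even-numbered samples. The values that led to the choice are the ones described here, so the levels of the 2 genes are given as a description, with no test. All animals were male, neutered Scottish blackface sheep. The SP group (light for 8 hr and dark for 16 hr) has 5 samples. The other groups were moved from SPs to LPs (light for 16 hr and dark for 8 hr), where they stayed 1, 7, or 28 days, and have 6 samples each, which gives 23 samples in all, 12 with odd and 11 with even numbers. The labels give each sample a number within its group, but not the hour at which it was collected, its age, or the meaning of the number. Nothing in the labels says that each sample is a separate animal, so errors given here measure the spread between these samples.

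The PT is a tissue around the pituitary stalk that responds to day length. Melatonin, released by the pineal gland at night, binds melatonin receptor 1A on PT cells. This receptor acts through inhibitory G proteins that hold down adenylyl cyclase and with it cyclic AMP. Phosphodiesterases break cyclic nucleotides down, and PDE10A accepts both cyclic AMP and cyclic GMP. Both genes thus belong to the machinery that sets cyclic AMP in a melatonin-responsive cell.

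The samples differed in depth and in makeup. Total counts ranged from 307952 in LP day 1 sample 4 to 4413929, with a median of 3332320. A count of 3, taken as the floor of detection, equals 9.74 CPM, the count scaled to a common library size, in LP day 1 sample 4 and at most 1.62 CPM in the other samples. These floors are scaled by total counts, without the TMM normalization used for the levels of genes. With it, 3 counts in LP day 1 sample 4 equal 8.94 CPM. Floors cover counting error only, since PCR copies of a molecule were not told apart. LP day 1 samples 3 and 4 were close to each other, with a mean chi-square per gene of 1.15 over 11765 genes, where counting noise alone gives about 1 and the next closest of 55 pairs within groups had 1.81. Both pairs include LP day 1 sample 4, and this value is smaller at low depth. Pairs of sample 4 with samples 1, 2, and 5 had 3.59, 7.75, and 6.16. LP day 1 samples 3 and 4 were kept as 2 samples. All 4 PT thyrotroph genes of the marker list (CGA, TSHB, EYA3, and CHGA) were counted in every sample, with a summed level of 6768 to 15269 CPM. Of the 4, EYA3 divided by sample number at both late times. It had 331 to 954 CPM in odd- and 30.9 to 41.0 CPM in even-numbered samples of LP day 7, and 123 to 473 CPM and 37.7 to 58.6 CPM in those of LP day 28. TSHB was lower in all odd- than in all even-numbered samples of LP day 7. The 6 pars distalis genes that could be paired (PRL, GH1, POMC, LHB, FSHB, and POU1F1) were also above 0 in every sample. Their summed level ran from 34900 to 272864 CPM over the 12 odd- and from 46453 to 268730 CPM over the 11 even-numbered samples. No pars distalis gene, none of the 5 folliculostellate markers, and not MBP, the paired gene of the neural list, divided by sample number at LP day 7 or 28. On SPs, TSHB, POMC, POU1F1, and ALDH1A1 were lower in all odd- than in all even-numbered samples, as was ALDH1A1 at LP day 1. Over all genes, 12.7%, 2.72%, and 7.53% were lower in this way on SPs and at LP days 1 and 7. Genes that were higher made up 7.46% at LP day 7 and 7.0% at LP day 28. PTPRC, a gene of blood leukocytes, had 16.6 to 22.5 CPM in odd- and 27.7 to 68.3 CPM in even-numbered samples of LP day 7, and overlapped at LP day 28. The part of other cell types in the results was not tested, and in whole-tissue samples fewer cells of a type and less RNA per cell cannot be told apart.

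MTNR1A was at 12.2 CPM or more in 10 samples and at 7.02 CPM or less in the others, and each group held samples of both kinds. On SPs, samples 1 to 5 had 17.4, 1.02, 20.1, 1.95, and 2.53 CPM of MTNR1A (counts of 65, 3, 69, 6, and 9). At LP day 1, samples 1 to 6 had 12.2, 2.48, 1.58, 0, 4.03, and 13.2 CPM. The 0 belongs to LP day 1 sample 4, where up to 8.94 CPM, on the same TMM-normalized scale, could have gone undetected. Samples 1 and 3 on SPs and samples 1 and 6 at LP day 1 thus stood above the rest of their groups. At LP day 7, samples 1 to 6 had 36.5, 1.48, 24.0, 0.536, 41.5, and 2.05 CPM of MTNR1A. At LP day 28, they had 27.5, 4.80, 14.5, 1.35, 18.95, and 7.02 CPM. At both of these times the odd-numbered samples were all high and the even-numbered samples all low. No sample lay between 7.02 and 12.2 CPM.

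PDE10A was counted in every sample, at 12.6 to 62.0 CPM. On SPs, samples 1 to 5 had 18.98, 14.3, 23.6, 24.8, and 16.3 CPM of PDE10A, the narrowest spread of the 4 groups. At LP day 1, samples 1 to 6 had 33.2, 15.5, 12.6, 26.8, 17.2, and 53.1 CPM, where the 26.8 rests on 9 counts. Samples 1 and 6 were the highest of LP day 1 for PDE10A, as they were for MTNR1A. At LP day 7, samples 1 to 6 had 34.5, 17.8, 35.2, 18.2, 61.0, and 13.3 CPM of PDE10A. At LP day 28, they had 61.7, 17.5, 62.0, 19.9, 34.5, and 17.2 CPM. The odd-numbered samples of LP days 7 and 28 were again the high ones, and the even-numbered samples lay within or close to the SP range.

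**Figure D1:**
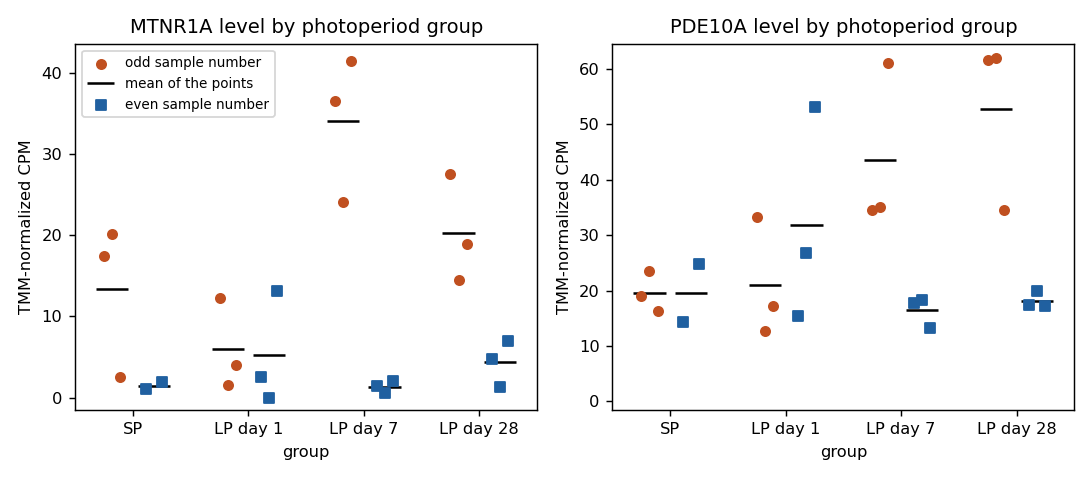
Level of MTNR1A (left) and PDE10A (right) in each of the 23 samples, as TMM-normalized CPM on a linear axis, by group. Each point is a sample, circles are odd and squares are even sample numbers, and bars are the means of the points beside them. At LP days 7 and 28 the circles lie above the squares for both genes, whereas on SPs and at LP day 1 circles and squares of PDE10A overlap.

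Over whole groups, levels of both genes overlapped between photoperiods. The mean level of MTNR1A was 8.60 ± 9.33 CPM (SD, n = 5) on SPs. LP days 1, 7, and 28 had means of 5.58 ± 5.67, 17.7 ± 18.8, and 12.4 ± 9.84 CPM (SD, n = 6 each). In order of level, LP day 7 was followed by LP day 28, SPs, and LP day 1, and each mean lay within 1 SD of its neighbours. The log2 fold changes of MTNR1A against SPs were -0.48 (standard error 0.69), 1.03 (standard error 0.87), and 0.52 (standard error 0.65) for LP days 1, 7, and 28. For PDE10A the mean was lowest on SPs, at 19.6 ± 4.53 CPM (SD, n = 5), and was 26.4 ± 15.2, 30.0 ± 17.8, and 35.4 ± 21.4 CPM for LP days 1, 7, and 28 (SD, n = 6 each). The standard deviation was larger in each LP group than on SPs, and the groups overlapped. Its log2 fold changes against SPs were 0.41 (standard error 0.32), 0.64 (standard error 0.33), and 0.88 (standard error 0.33) for the same days. Without LP day 1 sample 4, LP day 1 against SPs gave log2 fold changes of -0.41 for MTNR1A and 0.41 for PDE10A. These comparisons share the SP samples. On no LP day did every sample exceed every SP sample for either gene, whereas 0.0831%, 1.13%, and 1.05% of all genes did so on LP days 1, 7, and 28.

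Genes were called differentially expressed (DE) at a false discovery rate (FDR) under 0.05 in edgeR's quasi-likelihood test, after Benjamini-Hochberg adjustment over all genes tested. Over all samples, none of the 2 genes was called against SPs at any LP day, where the shares of all tested genes called were 0%, 0.266%, and 0.67% for LP days 1, 7, and 28. At LP day 1, 497 genes had an unadjusted p under 0.05. DESeq2's Wald test did not call the 2 genes there either. A fit of odd-numbered samples alone called PDE10A at LP day 28, with 0.188% of all genes. Since these comparisons helped to choose the 2 genes, nothing is read from their calls. Between LP days, MTNR1A differed by 1.51 (standard error 0.79) on the log2 scale at LP day 7 against LP day 1 and by -0.51 (standard error 0.73) at LP day 28 against LP day 7. PDE10A differed by 0.22 (standard error 0.38) and 0.25 (standard error 0.38) in the same comparisons. Neither gene was called there, with 0.0201% and 0.00672% of all tested genes called. LP day 28 against LP day 1 gave log2 fold changes of 1.00 (standard error 0.57) for MTNR1A and 0.48 (standard error 0.37) for PDE10A, neither of them called where 0.216% of all tested genes were.

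The spread within groups followed the sample number. At LP day 7, odd-numbered samples had 34.0 ± 8.98 CPM and even-numbered samples 1.36 ± 0.766 CPM of MTNR1A (SD, n = 3 each), a ratio of 25.1 that rests on counts of 5, 2, and 6 in the even-numbered samples. At LP day 28, the means were 20.3 ± 6.60 CPM and 4.39 ± 2.86 CPM (SD, n = 3 each), a ratio of 4.63. On SPs, the 3 odd-numbered samples averaged 13.3 CPM and the 2 even-numbered samples 1.49 CPM of MTNR1A. At LP day 1, the means were 5.94 and 5.21 CPM, a ratio of 1.14, and the samples with the highest level included both an odd and an even number. PDE10A showed its odd-over-even difference at the later times. It had 43.6 ± 15.1 CPM in odd- and 16.5 ± 2.71 CPM in even-numbered samples of LP day 7 (SD, n = 3 each), and 52.7 ± 15.8 CPM and 18.2 ± 1.48 CPM in those of LP day 28 (SD, n = 3 each), ratios of 2.65 and 2.90. On SPs the ratio of PDE10A means was 1.01, and at LP day 1 it was 0.661.

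Over LP days 7 and 28 together, both genes were higher in each of the 6 odd-numbered samples than in any of the 6 even-numbered samples. This held for 123 of 15653 genes, or 0.786%. Since the difference helped to choose the 2 genes, nothing is read from the count. At LP day 7 alone the same was true of 7.46% of genes, at LP day 28 alone of 7.0%, at LP day 1 of 4.18% (neither of the 2), and on SPs of 11.5% (MTNR1A only, by 2.53 against 1.95 CPM, or 9 against 6 counts). In a fit of all 23 samples with a term for group, even against odd numbers gave log2 fold changes of -2.46 (standard error 0.49) for MTNR1A and -0.68 (standard error 0.26) for PDE10A. Within LP days 7 and 28 the values were -3.30 (standard error 0.40) and -1.48 (standard error 0.18). Within SPs and LP day 1 they were -1.23 (standard error 0.75) for MTNR1A and 0.33 (standard error 0.32) for PDE10A.

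Among odd-numbered samples, PDE10A was higher at LP days 7 and 28 than on SPs. Every odd-numbered sample of LP days 7 and 28 had more PDE10A than every SP sample, with 34.5 CPM as the lowest of the former and 24.8 CPM as the highest of the latter. This was the case for 1.26% of genes. MTNR1A did not show it, as its lowest odd-numbered value there, 14.5 CPM, lay below the highest SP value of 20.1 CPM. Within odd-numbered samples, the log2 fold change of PDE10A against SPs was 0.10 (standard error 0.34), 1.16 (standard error 0.26), and 1.45 (standard error 0.24) for LP days 1, 7, and 28. That of MTNR1A was -1.13 (standard error 0.71), 1.36 (standard error 0.50), and 0.62 (standard error 0.51). Within even-numbered samples, PDE10A differed from SPs by 0.73 (standard error 0.43), -0.24 (standard error 0.28), and -0.10 (standard error 0.28) at LP days 1, 7, and 28. MTNR1A differed by 2.06 (standard error 0.87), -0.17 (standard error 0.79), and 1.52 (standard error 0.76) there, from counts of 0 to 26 per sample. The 2.06 rests on LP day 1 sample 6, with 13.2 CPM beside 2.48 and 0 CPM in samples 2 and 4. Among odd numbers, SP sample 5 and LP day 1 samples 3 and 5 were low in MTNR1A. These values of MTNR1A thus mix the division into high and low samples with photoperiod, and the 2 cannot be told apart. Even-numbered samples of LP days 7 and 28 did not exceed all SP samples for either gene, which 1.05% of genes did. The fits within odd or even numbers were added after the data had been seen.

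**Figure D2:**
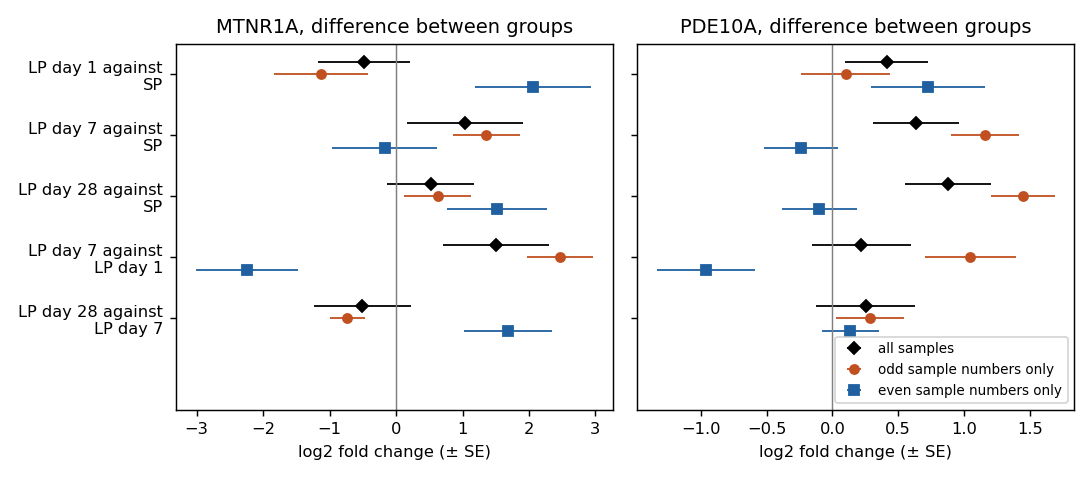
Log2 fold change of MTNR1A (left) and PDE10A (right) in 5 comparisons of groups, from edgeR fits over all samples (diamonds), odd-numbered samples (circles), and even-numbered samples (squares), with bars of 1 standard error. For PDE10A the odd-numbered samples give 1.16 and 1.45 at LP days 7 and 28 against SPs, where the even-numbered samples give -0.24 and -0.10.

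The change in the odd-even difference between early and late times was also estimated in 1 fit, as even against odd at LP days 7 and 28 minus even against odd on SPs and at LP day 1. It was -2.04 (standard error 0.94) for MTNR1A and -1.79 (standard error 0.38) for PDE10A.

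The alignment directory named in each file header was used as a sign of separate sets of libraries, though the headers do not say what it stands for. Samples 1 and 2 of the 4 groups carry consecutive directory numbers. Of the other 15 samples, 11 share a directory number with another sample and 4 do not. Samples numbered 3 carry directories s9 to s12, which continue the run of samples 1 and 2. Samples numbered 4 to 6 carry directories between s2 and s16. No directory number repeats within samples 1 to 3 or within samples 4 to 6. Samples 1 and 2 are thus only part of the first run, and whether the 2 runs are separate sets of libraries is not stated. Within samples 1 and 2, each sample 1 exceeded each sample 2 for both genes, at a lowest against a highest value of 12.2 and 4.80 CPM for MTNR1A and 18.98 and 17.8 CPM for PDE10A. A total of 2.3% of genes did the same. The log2 fold change of even against odd numbers in these 8 samples was -3.24 (standard error 0.37) for MTNR1A and -1.10 (standard error 0.22) for PDE10A, and that of LP day 28 against SPs 0.80 (standard error 0.85) and 1.26 (standard error 0.48).

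Levels of the clock gene CRY1, a repressor in the circadian feedback loop, moved with the same division of samples. CRY1 had 17.01 to 34.4 CPM in 10 samples and 138 to 405 CPM in the other 13. Of the 10, 9 have odd numbers and 1 has an even number (LP day 1 sample 6), and of the 13, 10 have even and 3 have odd numbers (SP sample 5 and LP day 1 samples 3 and 5). The 10 samples with the least CRY1 were the 10 with the most MTNR1A, at 12.2 to 41.5 CPM against 0 to 7.02 CPM in the rest. A total of 5 genes, or 0.0319% of 15653, separated the samples in this way, MTNR1A among them. In the opposite direction, 7 genes, or 0.0447%, did so. This division nearly follows the sample number, which helped to choose the 2 genes, so nothing is read from these counts. For PDE10A the ranges were 18.98 to 62.0 CPM and 12.6 to 26.8 CPM, and 8 of the 10 samples with the most PDE10A were among the 10 with the least CRY1. The other 2 of the 10 were SP samples 1 and 3, with 18.98 and 23.6 CPM of PDE10A beside 14.3 to 24.8 CPM in the remaining SP samples. At LP day 1, samples 1 and 6, with little CRY1, had 33.2 and 53.1 CPM of PDE10A, and the other 4 had 12.6 to 26.8 CPM.

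CRY1 is 1 of 11 paired genes of the clock list of 15, and several others divided by sample number at the late times. Of the 11, 6 (NR1D1, NR1D2, DBP, TEF, BHLHE41, and CIART) were higher in every odd- than in every even-numbered sample of LP day 7, and 1 (CRY1) was lower. At LP day 28, 7 (CRY2, PER3, NR1D1, ARNTL, DBP, TEF, and CIART) were higher and 1 (CRY1) was lower. Over all genes, 7.46% were higher and 7.53% lower in this way at LP day 7, and 7.0% and 6.84% at LP day 28. The 11 clock genes have a symbol because the study's tables hold them, so they are not a neutral draw beside these shares. On SPs 4 of the 11 were higher, and at LP day 1 only CRY2, beside 11.5% and 4.18% of all genes. None was lower at either time, beside 12.7% and 2.72% of all genes. The summed level of the 11 was 940 to 1239 CPM in odd- and 708 to 833 CPM in even-numbered samples of LP day 7, and 698 to 1139 CPM and 718 to 728 CPM in those of LP day 28. NR1D1, a repressor of the opposite arm of the loop, had 257 to 451 CPM in the odd- and 67.7 to 84.7 CPM in the even-numbered samples of LP day 7. CIART, a further repressor of the loop, had 37.0 to 58.5 CPM and 10.4 to 13.7 CPM there. With CRY1 as a covariate, chosen after seeing the data, even against odd numbers gave -0.58 (standard error 0.42) for MTNR1A and 0.05 (standard error 0.25) for PDE10A. The hour of collection is not in the labels, and its part in the difference was not tested.

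**Figure D3:**
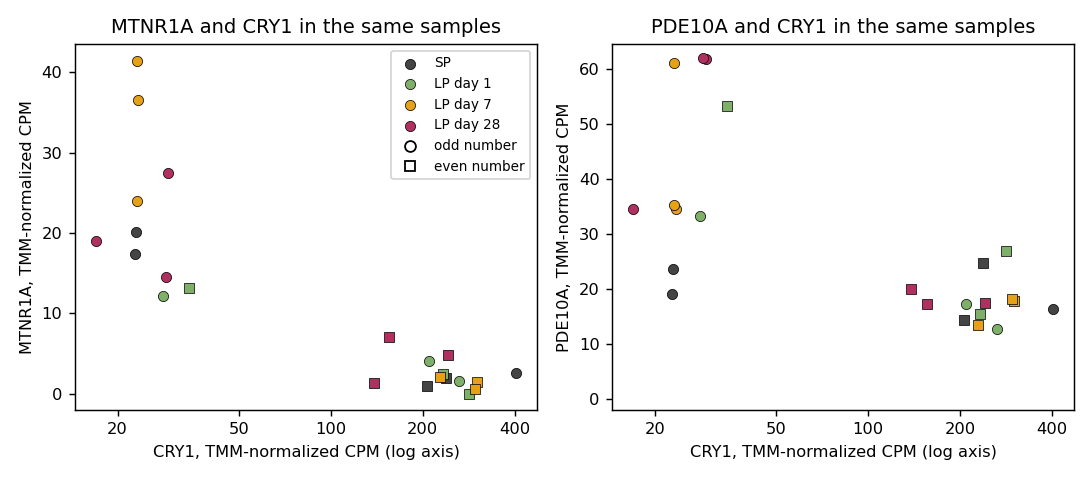
MTNR1A (left) and PDE10A (right) against CRY1 in the same 23 samples, with CRY1 on a log axis and the 2 genes on linear axes, all as TMM-normalized CPM. Colours are groups, circles odd and squares even sample numbers. CRY1 leaves a gap between 34.4 and 138 CPM, and all samples with at least 12.2 CPM of MTNR1A lie to its left. The SP samples to the left of the gap have 18.98 and 23.6 CPM of PDE10A, the LP samples there 33.2 CPM or more.

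Likeness to each gene was measured by Pearson's r of log2 CPM over the 23 samples, among the 1121 genes with a symbol that passed the filter. These values describe samples that share a division into 2 clusters and come without a test. The 1121 genes have a symbol because the study's tables hold them, so they are not a neutral draw from all genes. Among all genes past the filter, CLCN2 ranked 7 in likeness to MTNR1A and MTERF2 7 in likeness to PDE10A. The genes most like MTNR1A were DRD1 (r = -0.91), which encodes a dopamine receptor that stimulates adenylyl cyclase, CRY1 (r = -0.91), and CLCN2 (r = 0.85), which encodes a chloride channel. With group means removed, they were DRD1 (r = -0.91), CRY1 (r = -0.90), and FNDC3A (r = 0.89). DRD1 ran opposite to MTNR1A, at 1.53 to 3.71 CPM in the odd- and 36.2 to 38.3 CPM in the even-numbered samples of LP day 7. At LP day 28 it had 8.55 to 11.7 CPM and 20.3 to 22.2 CPM. Among the 10 samples with high MTNR1A, r with MTNR1A was -0.63 for DRD1, -0.36 for CRY1, and 0.83 for CLCN2, and among the 13 with low MTNR1A it was -0.57, -0.32, and 0.64. Within the 10 high samples, CLCN2 thus kept most of its likeness, and CRY1 kept less. In the 13 low samples MTNR1A had few counts, so nothing is read from the values of r there.

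For PDE10A the most alike genes were SLC39A6 (r = 0.83), which encodes a zinc transporter, CPT1C (r = 0.79), which encodes a carnitine palmitoyltransferase of neural tissue, and MTERF2 (r = -0.78), which encodes a mitochondrial factor of the transcription termination family. With group means removed, they were SLC39A6 (r = 0.82), RGS9 (r = 0.82), which encodes a regulator that speeds the turn-off of G proteins, and ETV5 (r = 0.80), which encodes a transcription factor. SLC39A6 had 113 to 164 CPM in odd- and 70.6 to 91.1 CPM in even-numbered samples of LP day 7, and 167 to 216 CPM and 75.8 to 91.3 CPM at LP day 28. ETV5 had 46.3 to 68.7 CPM and 30.0 to 39.2 CPM at LP day 7, and 81.6 to 110 CPM and 38.7 to 41.4 CPM at LP day 28. MTNR1A and PDE10A had an r of 0.69 with each other over 23 samples and 0.77 without LP day 1 sample 4. Within the 10 samples with high MTNR1A it was 0.19, and within the 13 with low MTNR1A -0.36. The 2 genes were thus alike in the division of the samples, and within the 10 high samples their values did not run closely together. In the 13 low samples MTNR1A had counts of only 0 to 18, and LP day 1 sample 4 is among them. The r there is limited by counting error, and nothing is read from it.

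Of the cyclic nucleotide pathway, few other genes could be followed. Of 122 symbols on 9 lists (melatonin receptors and synthesis, phosphodiesterases, adenylyl cyclases, guanylyl cyclases, G protein alpha subunits, RGS proteins, cyclic nucleotide effectors, CREB regulators, and cAMP-induced early genes), 12 could be paired with 13 identifiers. None of the adenylyl cyclases, G protein alpha subunits, and cyclic nucleotide effectors could be paired. The 12 have a symbol because the study lists them as DE in some comparison of its own, so their calls are not independent evidence. None of the 13 was called at LP day 1 (12 tested) or at LP day 7 (11 tested), and at LP day 28 the only one called of 11 was RGS11, which fell. At unadjusted p under 0.05 there were 3, 2, and 3 of them in edgeR's quasi-likelihood test. Over all tested genes, 3.33%, 14.4%, and 13.8% had such a p. DESeq2's Wald test called 0, 2, and 2 of the list genes, and 0.0134%, 2.33%, and 2.32% of all genes. The median log2 fold changes of the tested list genes were 0.45, 0.29, and 0.25 for LP days 1, 7, and 28, beside 0.00, -0.01, and -0.01 over all tested genes. Even against odd numbers called none of 12 list genes in edgeR, where 0.0192% of all genes were called, and 4 of them had an unadjusted p under 0.05, as did 9.04% of all genes. DESeq2's Wald test called 1, and 0.332% of all genes. The list median was -0.23, beside 0.00 over all genes.

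RGS11, which like RGS9 shortens G protein signals, had 29.7 to 35.6 CPM in the 5 SP samples. It had 14.8 to 24.8 CPM in the 6 samples of LP day 28. The share of all genes lower in every LP day 28 than in every SP sample was not counted. Genes higher in this way made up 1.05%. The log2 fold change came to -0.72 (standard error 0.15, FDR 0.0342 in edgeR's quasi-likelihood test, Benjamini-Hochberg adjusted). The call was kept when LP day 28 samples 4 or 5 or SP samples 1 or 5 were left out, and lost without any 1 of the other 7 samples, over an FDR range of 0.0225 to 0.0899 in the same edgeR test. RGS11 did not follow the sample number at LP day 28, with 15.4 to 24.8 CPM in odd- and 14.8 to 22.6 CPM in even-numbered samples.

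PDE3A, whose product breaks down cyclic AMP and is inhibited by cyclic GMP, resembled PDE10A at the late times and was singled out after its values were seen. On SPs it had 2.67, 3.40, 4.08, 4.23, and 1.69 CPM in samples 1 to 5. At LP day 7, samples 1 to 6 had 14.6, 7.72, 12.9, 5.90, 14.5, and 4.10 CPM, and at LP day 28 they had 19.6, 7.19, 11.1, 4.04, 19.9, and 5.07 CPM. The odd-numbered samples of both days lay above the even-numbered and above all SP samples. At LP day 1 the order was turned, with 1.90 to 4.78 CPM in odd- and 6.07 to 8.94 CPM in even-numbered samples. The 8.94 CPM belongs to LP day 1 sample 4 and rests on 3 counts, the floor of detection. Against SPs, its log2 fold change was 1.65 (standard error 0.36) for LP day 7 and 1.80 for LP day 28. The FDR was 0.0665 and 0.0597 in edgeR's quasi-likelihood test, Benjamini-Hochberg adjusted, so that neither was called. The difference of its odd-even contrast between late and early times was -2.20 (standard error 0.39) and was called (FDR 0.0225, same edgeR test), where 0.0319% of genes were.

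PDE1A, the gene of a calmodulin-dependent phosphodiesterase, and PDE7A, the gene of one specific to cyclic AMP, did not divide by sample number at both late times. PDE1A had 15.8 to 27.4 CPM in odd- and 13.3 to 17.5 CPM in even-numbered samples at LP day 7, and 5.35 to 14.1 CPM and 11.3 to 14.7 CPM at LP day 28. PDE7A had 32.5 to 48.3 CPM and 23.7 to 30.0 CPM at LP day 7, and 30.2 to 47.1 CPM and 33.7 to 37.5 CPM at LP day 28. Its odd- and even-numbered samples were thus apart at LP day 7 and overlapped at LP day 28. Levels are not compared between genes, since CPM does not account for gene length.

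**Figure D4:**
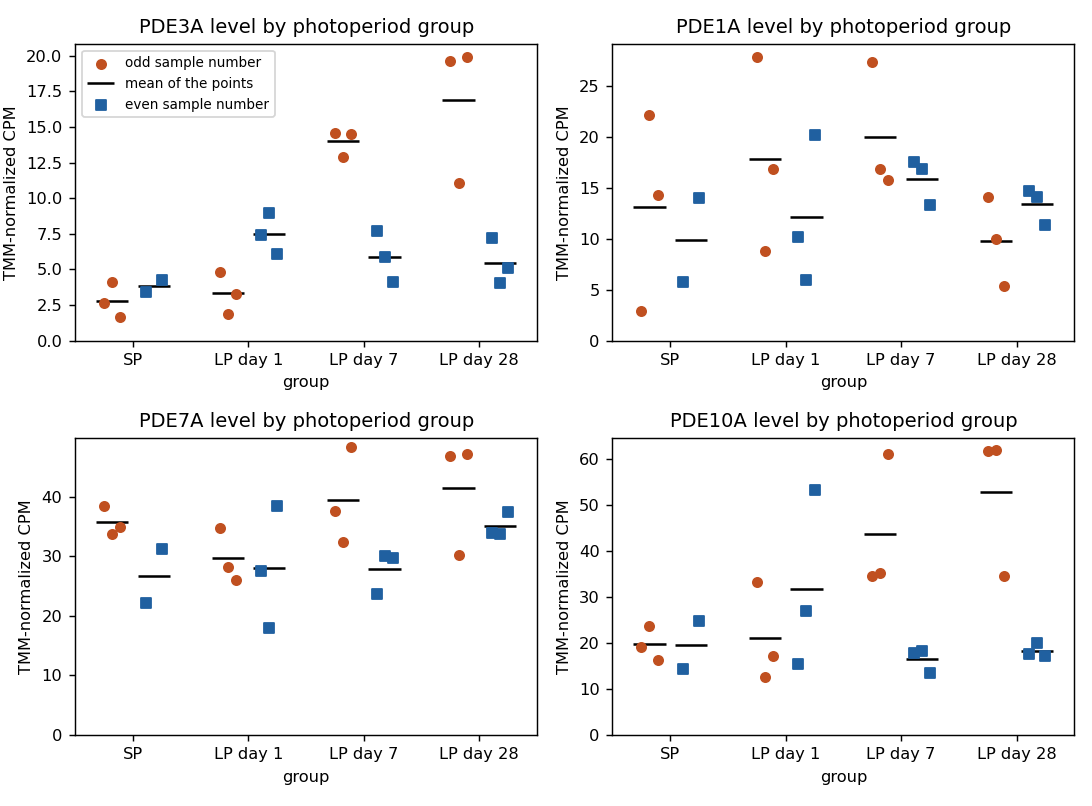
Level of the 4 paired phosphodiesterase genes (PDE3A, PDE1A, PDE7A, and PDE10A) in each of the 23 samples, as TMM-normalized CPM on linear axes from 0, by group. Circles are odd and squares are even sample numbers, and bars are the means of the points beside them. PDE3A and PDE10A have all circles above all squares at LP days 7 and 28, and PDE1A and PDE7A do not.

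Of the remaining list genes, SIK2, a kinase that holds back CREB coactivators, was high at LP day 7. It had 57.7, 14.5, 61.9, 35.1, 41.7, and 23.3 CPM in samples 1 to 6 there, beside 7.81 to 21.1 CPM on SPs. Its log2 fold change of 1.46 (standard error 0.35) had an FDR of 0.0763 and was not called in edgeR's quasi-likelihood test, Benjamini-Hochberg adjusted. Within LP days 7 and 28, SIK2 fell by 1.00 and RGS9 by 0.73 on the log2 scale from odd to even numbers, called with an FDR of 0.00892 and 0.00913 in the same edgeR test, and PDE3A was the third of 11 list genes called, where 1.02% of all genes were. The cAMP-induced early genes NR4A1, NR4A2, and EGR1 and the guanylyl cyclase gene GUCY2C were called in none of the 7 comparisons. AANAT, the gene of the enzyme that controls melatonin synthesis, is paired with 2 identifiers, and neither exceeded 2.98 CPM in any sample.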

How the data were processed

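The authors deposited whole-number counts of reads per Ensembl sheep gene, 1 table per PT sample. The submitters' processing notes name Bowtie, HTSeq, and the Oar 3.1 build, whereas the file headers have the form of another counting program, and which was used was not settled. Groups and sample numbers came from the labels. In R 4.3.3, edgeR 4.0.16 was applied to the samples of each pair of groups, with TMM normalization, genes kept where over 1 CPM in a number of samples no lower than the size of the smaller group, the quasi-likelihood test, and Benjamini-Hochberg adjustment over all genes tested. CPM of single samples was TMM-normalized over all 23 samples, and 15653 genes passed over 1 CPM in at least 5 samples. Log2 CPM used a prior count of 2. A standard error is the size of a log2 fold change over the root of its F statistic. The fits were checked on simulated counts. Alternatives were DESeq2 1.42.0 (its test, and its size factors in edgeR), no filter, PRL left out, a single fit, sample number as a block, parity or CRY1 as a covariate, subsets of samples, and each sample left out.

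Symbols were paired with identifiers through the study's own tables (1259 symbols paired with identifiers, 29 of them on more than 1), and no identifier was found in the reference table of genes. No sequence or position is given. The rule named the 2 genes, list genes called in a comparison, the most abundant of the paired phosphodiesterases, and the 3 genes most like each of the 2. PDE3A, PDE1A, SIK2, NR4A1, NR4A2, EGR1, GUCY2C, and AANAT were named outside it, after their values were seen. The genes and lists were chosen with earlier results of these data known. Numbers were not taken to pair samples across groups, since in no comparison was the correlation of their deviations over 0.1 in every pair. This rule does not show that pairing is absent.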

Additional observations from a re-analysis of the deposited data

Results flagged for a closer look

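RGS11 stood at 37.0 CPM in LP day 1 sample 5, the highest of that group, and its gap to the next sample was larger than Dixon's criterion allows for 6 samples. A total of 24 groups were checked in this way and 1 exceeded the criterion, where chance gives about 1 in 20. These groups do not cover all genes named here, so other genes could hold such values. PDE3A differed between early and late times in its even-against-odd contrast, by -2.20 on the log2 scale (standard error 0.39, FDR 0.0225 in edgeR's quasi-likelihood test, Benjamini-Hochberg adjusted). PDE3A was higher in the odd-numbered samples of LP days 7 and 28 (6 of 6 above every even-numbered sample). It was lower in those of LP day 1 (3 of 3 below every even-numbered sample), where even-numbered sample 4 had 3 counts. Over all genes, 0.786% had the first order and 2.72% the second.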

How the results depend on the processing

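Of 77 alternatives for each gene, MTNR1A moved by less than the spread between samples in 71 and PDE10A in 68, and the cause of the others was not tested. Between groups, this spread is the pooled SD of log2 CPM within groups, which is wide for MTNR1A, so a change of sign can pass. At LP day 7 against SP, all 12 alternatives for MTNR1A passed. The value there was 1.03 over all samples and -0.17 in even-numbered samples. These counts are therefore a weak sign of stability. In even-numbered samples alone, MTNR1A gave 2.06 at LP day 1 against SP, -2.25 at LP day 7 against LP day 1, 1.69 at LP day 28 against LP day 7, and -0.57 at LP day 28 against LP day 1. Of these samples, only LP day 1 sample 6 was among those high in MTNR1A. PDE10A gave -0.24 and -0.10 at LP days 7 and 28 against SP and -0.96 and -0.83 at LP days 7 and 28 against LP day 1, where odd-numbered samples gave 1.05 and 1.33. Even against odd numbers came to -1.23 for MTNR1A and 0.33 for PDE10A within SP and LP day 1, to -0.58 and 0.048 with CRY1 as a covariate, and to -1.48 for PDE10A within LP days 7 and 28. Leaving out each sample gave ranges for MTNR1A against SP of -0.90 to 0.08, 0.57 to 1.59, and 0.07 to 1.07 for LP days 1, 7, and 28, and -3.05 to -2.23 for even against odd numbers. The value at LP day 1 was 0.08 without SP sample 3. PDE10A gave 0.06 to 0.58, 0.29 to 0.77, and 0.63 to 1.02 against SP and -0.93 to -0.55 for even against odd numbers. Its value at LP day 1 was 0.06 without LP day 1 sample 6, and at LP day 7 it was 0.29 without LP day 7 sample 5. At LP day 7 against LP day 1 it ranged from -0.12 (without LP day 7 sample 5) to 0.57.

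DESeq2's size factors in edgeR left the number of list genes called at 0 for LP day 7 and at 1 for LP day 28. The number called at LP day 7 against SP was 0 and became 2 with DESeq2's Wald test, the parity covariate, the CRY1 covariate, or odd-numbered samples, and 1 in a single fit of all groups. Leaving out each sample gave 0 to 1, with 1 without LP day 7 sample 2 (SIK2) or LP day 7 sample 6 (PDE3A). At LP day 28 the number was 1 and became 2 with DESeq2's Wald test, no filter, a single fit, or either covariate, and 0 with SP samples 2, 3, and 5, even-numbered samples, or samples 1 and 2. Leaving out each sample gave 0 to 2, with 2 without LP day 28 sample 4 and 0 without 7 of the samples. LP day 28 against LP day 7 gave 1 with the CRY1 covariate, and LP day 28 against LP day 1 gave 1 in odd-numbered samples, both from 0. Even against odd numbers gave 1 with DESeq2's Wald test or no filter and 3 within LP days 7 and 28, and 0 to 1 on leaving out each sample, with 1 without LP day 1 samples 2, 3, 5, or 6 or SP sample 5. With the sample number as a replicate block, the list genes called were 2 at LP day 7 and 0 at LP day 28 against SP, and the genes called in all were 178 and 41 in place of 40 and 100. Block values of the 2 genes were 1.23 and 0.83 for MTNR1A and 0.68 and 0.88 for PDE10A at LP days 7 and 28. By the rule used, numbers were not taken to pair samples across groups (r from -0.0967 to 0.233 over the 5 pairs at LP day 7 against SP). In that comparison, 3 of the 5 pairs correlated best with their own number, the most of any comparison. The rule does not show that pairing by number is absent.

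Depth limits MTNR1A in even-numbered samples, with counts of 0 to 26 per sample, and both genes in LP day 1 sample 4. The hour of collection of single samples is not in the labels.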

Other observations

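A total of 7 genes were lower in each of the 10 samples with the least CRY1 than in any of the other 13, CRY1 and DRD1 among them. Of the rest, TSHR and GYG1 have a symbol and 3 have none. TSHR encodes the receptor of thyrotropin, which acts through the stimulatory G protein. Of the 5 genes that were higher, MARCH4 is the only other with a symbol beside MTNR1A. These genes were picked out after their values were seen, and CRY1, which ordered the samples, is a member of the first set by construction.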
